A study of Arabidopsis thaliana with 24 samples.

Results

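The comparison described here set Arabidopsis thaliana seedlings that overexpress ELENA1 (OX) after 6 h with the peptide elf18 against the same genotype at 0 h. It was chosen by the sample labels, with no measured value, and holds 6 of the 24 libraries of the series, 3 at each time. Of the loci counted, 21015 had enough reads to be tested. The seedlings were 2 weeks old and of the Col-0 background, and ELENA1 is a long noncoding RNA. At 0 h (OX 0 h) they came from solid medium without peptide. For OX 6 h they were moved to liquid medium with 5 µM elf18, and both media held 1% sucrose. The protocol names elf18 or flg22 as the peptide, and the label of each library gives elf18. OX at 1 h and 12 h and wild-type Col-0 seedlings (WT) at 0 h and 6 h, each with 3 libraries and the same handling, are used where the 6 h change is set beside another time or genotype. Which promoter drives the transgene, and in how many lines, is not given in the sources used here. ELENA1 itself was not analysed here, so these values do not check the overexpression named in the labels.

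No group used here was moved to liquid medium without peptide, and the later harvest fell at another hour of a day with 16 h of light and 8 h of dark. The peptide, the transfer and the hour of day therefore cannot be told apart in any change from 0 h to 6 h. Libraries of the same condition also shared a well for sequencing, per the protocols. An effect of the well can be separated neither from that change nor from a difference between other groups compared. Whole seedlings were sampled, so fewer cells of a type and less RNA per cell cannot be told apart either. The labels call the replicates biological without saying how the seedlings were grown apart, and p-values measure the spread between these libraries.

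The peptide elf18 is the acetylated start of bacterial elongation factor Tu, and the leucine-rich repeat receptor kinase EFR in the plasma membrane binds it. EFR and its co-receptor BAK1 set off a calcium influx, a burst of reactive oxygen and MAP kinase cascades, and WRKY transcription factors then act on defence genes. EFR is folded and glycosylated in the endoplasmic reticulum, and its function is known to need the chaperone machinery of that compartment. Growth and photosynthesis genes are commonly reduced during such a response in Arabidopsis.

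Total counts were 52308559, 40614637 and 19200981 in the OX 0 h libraries and 50971570, 33714756 and 18803963 in the OX 6 h libraries. Over the 24 libraries the totals ran from 18767661 to 85230211, and the 10 genes with the most reads took 3.01 to 5.93% of a library. The median SD of log2 CPM (reads of a gene scaled to a common library total) between replicates was 0.096 at 0 h and 0.159 at 6 h in OX. OX 6 h replicate 1 stood apart from its group: its deviation from the mean of all libraries had a slope of -0.11 log2 units per doubling of transcript length, against 0.16 and 0.10 in the other two OX 6 h libraries. The OX 0 h libraries had slopes of 0.24, 0.29 and 0.20, all above those at 6 h. The length trend thus also differed between the times, and leaving out OX 6 h replicate 1 does not remove that. Counts of genes are given with and without OX 6 h replicate 1 in the next paragraph, and the lists and named genes were fitted without it as well.

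The seedlings at 6 h differed from those at 0 h in most of the transcriptome. In edgeR's quasi-likelihood test at a Benjamini-Hochberg adjusted p under 0.05, 12372 genes (58.9% of those tested) passed. Of these, 6323 (30.1%) were higher and 6049 (28.8%) lower at 6 h. Changes of at least 2-fold numbered 1291 higher (6.14%) and 1234 lower (5.87%), together 2525 genes (12.0%). The 3 libraries of one time did not overlap those of the other in 2487 of these 2525, which were selected on the same libraries. That selection favours such separation, and the share over all genes tested was not counted. At 4-fold the counts were 338 higher (1.61%) and 270 lower (1.28%). The median log2 fold change over all genes tested was 0.00. Without OX 6 h replicate 1, 11032 genes passed, with 1196 at least 2-fold higher and 1233 at least 2-fold lower.

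The genes that rose most included a transporter, secreted proteins and receptor kinases, and of the 12 that fell most, 4 are on the list of low-oxygen genes and 3 on that of starvation genes. AT4G28420, annotated as a tyrosine transaminase family protein, stood at 0.172, 0.112 and 0.146 CPM in the 0 h libraries and 11.3, 10.3 and 12.7 at 6 h, a log2 fold change of 6.26 ± 0.21 (SE, with an adjusted p of 1.1e-15). NRT2.5, a high-affinity nitrate transporter gene, stood at 0.686, 0.268 and 0.536 CPM in the 0 h libraries and 35.3, 32.0 and 42.2 at 6 h, a log2 fold change of 6.16 ± 0.21 (SE, with an adjusted p of 1.1e-15). In both genes every 6 h library lay more than 10 times above every 0 h library. AT2G17740, a gene for a C1 domain protein, rose by 5.57 ± 0.21 and AT2G44370, of the same annotated family, by 5.05 ± 0.16 (log2, SE). WAKL4, a wall-associated kinase-like gene, rose by 4.68 ± 0.22, and the lectin receptor kinase gene LECRKA4.2 by 4.56 ± 0.20. In the other direction, AT1G33055, which has no named product, stood at 22.1, 28.0 and 28.7 CPM in the 0 h libraries and 0.257, 0.381 and 0.302 at 6 h, a log2 fold change of -6.40 ± 0.39 (SE, with an adjusted p of 5.8e-12). BXL1, which encodes a beta-xylosidase of the cell wall, fell from 530.3, 503 and 674 CPM to 19.9, 24.6 and 15.2 CPM, a change of -4.83 ± 0.24 (SE, with an adjusted p of 2.6e-13). BT1, a gene for a protein with BTB and TAZ domains, fell from 462, 444 and 480.2 CPM to 15.8, 17.9 and 10.2 CPM, a change of -4.96 ± 0.22 (SE, with an adjusted p of 4.6e-14). The 6 genes with the largest CPM at 6 h among those that passed, not scaled for transcript length, were LHCB1.3 and RBCS1A, which fell, and the methionine synthase gene ATMS1, the plasma membrane proton pump gene HA2, the cytosolic chaperone gene HSC70-1 and the lipid-transfer-like gene EARLI1, which rose. HA2 stood at 765, 760 and 702 CPM in the 0 h libraries and 2958, 2859 and 3367 at 6 h, a log2 fold change of 2.04 ± 0.10 (SE, with an adjusted p of 3.5e-13). EARLI1 stood at 802, 829.9 and 786 CPM in the 0 h libraries and 2973, 3727 and 4649.6 at 6 h, a change of 2.23 ± 0.19 (SE, with an adjusted p of 1.5e-09). AT4G12490 and AT4G12500, its neighbours by locus name, rose by 3.47 ± 0.30 and 5.06 ± 0.25 (log2, SE). Reads that such close paralogs share may have been split between them in a way these counts do not show.

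**Figure D1:**
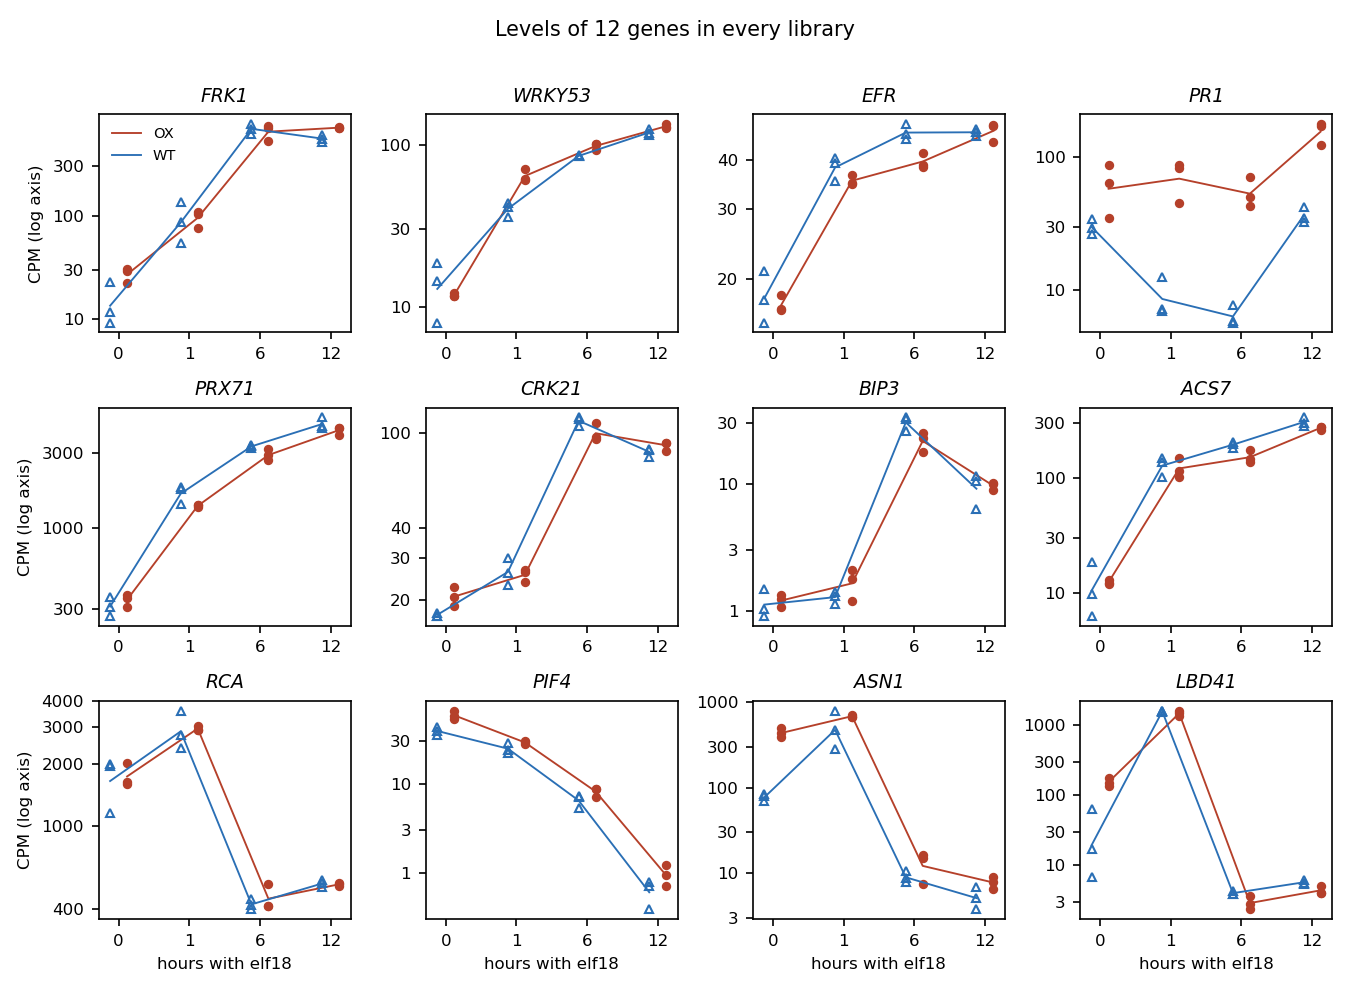
Levels of 12 genes in every library of OX (filled circles) and WT (open triangles) at the 4 times, in CPM on a log axis; the times are spaced evenly, not to scale, and lines join geometric means. From 0 h to 6 h in OX, FRK1, WRKY53, EFR, PRX71, CRK21, BIP3 and ACS7 rose, RCA, PIF4, ASN1 and LBD41 fell, and PR1 did not pass the test.

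Promoters of the genes that rose held the W-box more often than promoters at large, and promoters of genes that fell held the G-box more often. The W-box is the site that WRKY factors bind, and the G-box is bound by bHLH and bZIP factors, the PIF factors among them. Windows from 250 bases before to 50 after the annotated start were read from the RefSeq annotation and sequence of build TAIR10.1, which gave 20955 promoters of genes tested. The W-box was searched as TTGACC or TTGACT, the G-box as CACGTG and the evening element of clock target genes as AAAATATCT. The GCC-box bound by ethylene response factors was searched as GCCGCC, and a part of the endoplasmic reticulum stress element as CCACG. All were searched on both strands. Of 5044 matches of CCACG, 1171 (23.2%) overlapped a CACGTG, with which it shares the letters CACG. A W-box stood in 33.2% of all promoters, in 60.1% of the 336 promoters of genes that rose at least 4-fold and in 25.2% of the 270 of genes that fell at least 4-fold. For 2 or more W-boxes the shares were 8.0%, 28.6% and 7.41%. The G-box stood in 8.59% of all promoters, 5.36% of those that rose and 16.3% of those that fell. The shares of the evening element were 3.01%, 5.06% and 7.41%, those of the GCC-box 2.59%, 0.595% and 3.33%, and those of CCACG 19.0%, 17.3% and 30.0%. A match describes these letters in this window and was not tested as a binding site. These 5 promoters are shown because each gene had a large change and each window holds 2 or more matches, with the motif in capitals as it reads on the gene's own strand, so that a match on the other strand appears as AGTCAA or CGTGG.
WRKY30 (chr5:8154661-8154960, minus strand, W-box): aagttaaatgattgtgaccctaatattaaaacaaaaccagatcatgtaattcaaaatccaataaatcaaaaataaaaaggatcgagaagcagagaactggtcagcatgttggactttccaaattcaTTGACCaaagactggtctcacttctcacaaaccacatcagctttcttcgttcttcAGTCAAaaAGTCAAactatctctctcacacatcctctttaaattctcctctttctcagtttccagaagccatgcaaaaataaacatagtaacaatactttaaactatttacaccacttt
FRK1 (chr2:8329895-8330194, minus strand, W-box): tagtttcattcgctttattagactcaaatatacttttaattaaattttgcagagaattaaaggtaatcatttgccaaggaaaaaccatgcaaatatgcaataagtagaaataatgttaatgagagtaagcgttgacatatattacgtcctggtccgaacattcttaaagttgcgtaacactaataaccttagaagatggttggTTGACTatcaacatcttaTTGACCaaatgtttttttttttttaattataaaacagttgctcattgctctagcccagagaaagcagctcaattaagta
AT2G44370 (chr2:18323072-18323371, minus strand, W-box): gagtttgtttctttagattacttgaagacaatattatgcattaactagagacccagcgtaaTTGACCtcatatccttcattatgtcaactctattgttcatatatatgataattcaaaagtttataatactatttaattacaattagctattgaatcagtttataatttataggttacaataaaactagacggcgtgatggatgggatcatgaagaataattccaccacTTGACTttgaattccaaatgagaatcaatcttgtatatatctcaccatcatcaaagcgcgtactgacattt
ERDJ3A (chr3:2737047-2737346, plus strand, CCACG): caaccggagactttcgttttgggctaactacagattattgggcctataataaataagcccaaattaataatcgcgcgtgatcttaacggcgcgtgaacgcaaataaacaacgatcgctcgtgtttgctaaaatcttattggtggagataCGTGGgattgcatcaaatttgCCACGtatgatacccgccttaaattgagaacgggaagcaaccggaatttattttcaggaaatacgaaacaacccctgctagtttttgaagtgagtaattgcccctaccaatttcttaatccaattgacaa
ASN1 (chr3:17441382-17441681, minus strand, G-box): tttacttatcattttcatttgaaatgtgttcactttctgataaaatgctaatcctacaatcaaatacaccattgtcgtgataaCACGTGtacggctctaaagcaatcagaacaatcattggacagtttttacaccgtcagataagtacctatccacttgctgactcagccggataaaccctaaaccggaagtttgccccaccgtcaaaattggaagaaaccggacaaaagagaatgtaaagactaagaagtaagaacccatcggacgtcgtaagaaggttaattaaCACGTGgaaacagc
The W-box was matched 3 times in WRKY30 and 2 times each in FRK1 and AT2G44370. ERDJ3A held 2 matches of CCACG and ASN1 2 of CACGTG. Among the gene lists described next, the W-box stood in 83.3% of the promoters of berberine bridge enzyme-like genes and 68.0% of surface receptors. The shares were 65.4% for early marker genes and 64.5% for cysteine-rich receptor-like kinases. All other lists had lower shares. Salicylic acid genes had 27.3%, jasmonate genes 29.0% and phenylpropanoid genes 32.0%, beside 33.2% of all promoters. CCACG stood in 60.7% of the promoters of endoplasmic reticulum folding genes, and the G-box in 35.7% of them. The evening element stood in 35.3% of the promoters of afternoon and evening clock genes, and the G-box in 75.0% of those of morning clock genes. Among dark and sugar starvation genes, described below with ASN1, the G-box stood in only 1 of 29 promoters (3.45%), against 8.59% of all promoters.

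**Figure D2:**
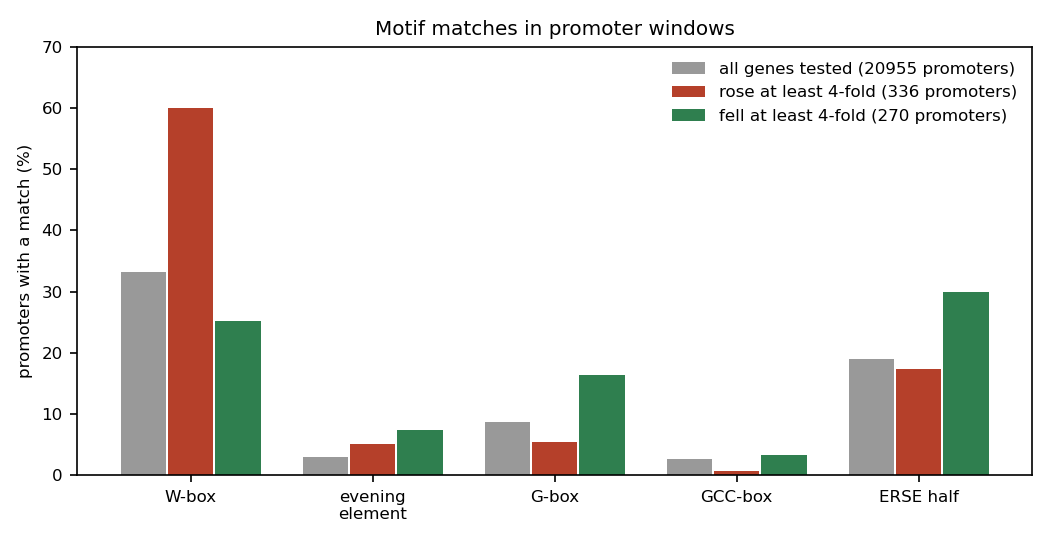
Share of promoter windows with at least 1 match of each motif, in percent, for all genes tested (grey), genes that rose at least 4-fold (red) and genes that fell at least 4-fold (green) from OX 0 h to OX 6 h. The W-box bar is taller for genes that rose, 60.1% against 33.2%, and the G-box bar for genes that fell, 16.3% against 8.59%.

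The lists of genes named in the following paragraphs hold 838 entries, of which 820 were tested, for 809 distinct loci. Those left out were 13 absent from the count table, 4 symbols that matched no locus and 1 with too few reads. A list is described by how many of its tested members passed in each direction and by the median log2 fold change of its tested members, beside 30.1% higher, 28.8% lower and a median of 0.00 over all genes tested. Counts at 2-fold or more stand beside 6.14% higher and 5.87% lower. Without OX 6 h replicate 1 the medians of the 37 lists moved by at most 0.18. The members that fell then numbered 3 in place of 5 for surface receptors and 5 in place of 9 for intracellular immune receptors. Otherwise leaving out 1 library moved a list's number of members that rose, or that fell, by over 1.5 times only where that number was 3 or fewer. Where a list is given with 0 members in a direction from 0 h to 6 h or from 6 h to 12 h, the count was also 0 at an unadjusted p under 0.05 in edgeR and in DESeq2.

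**Figure D3:**
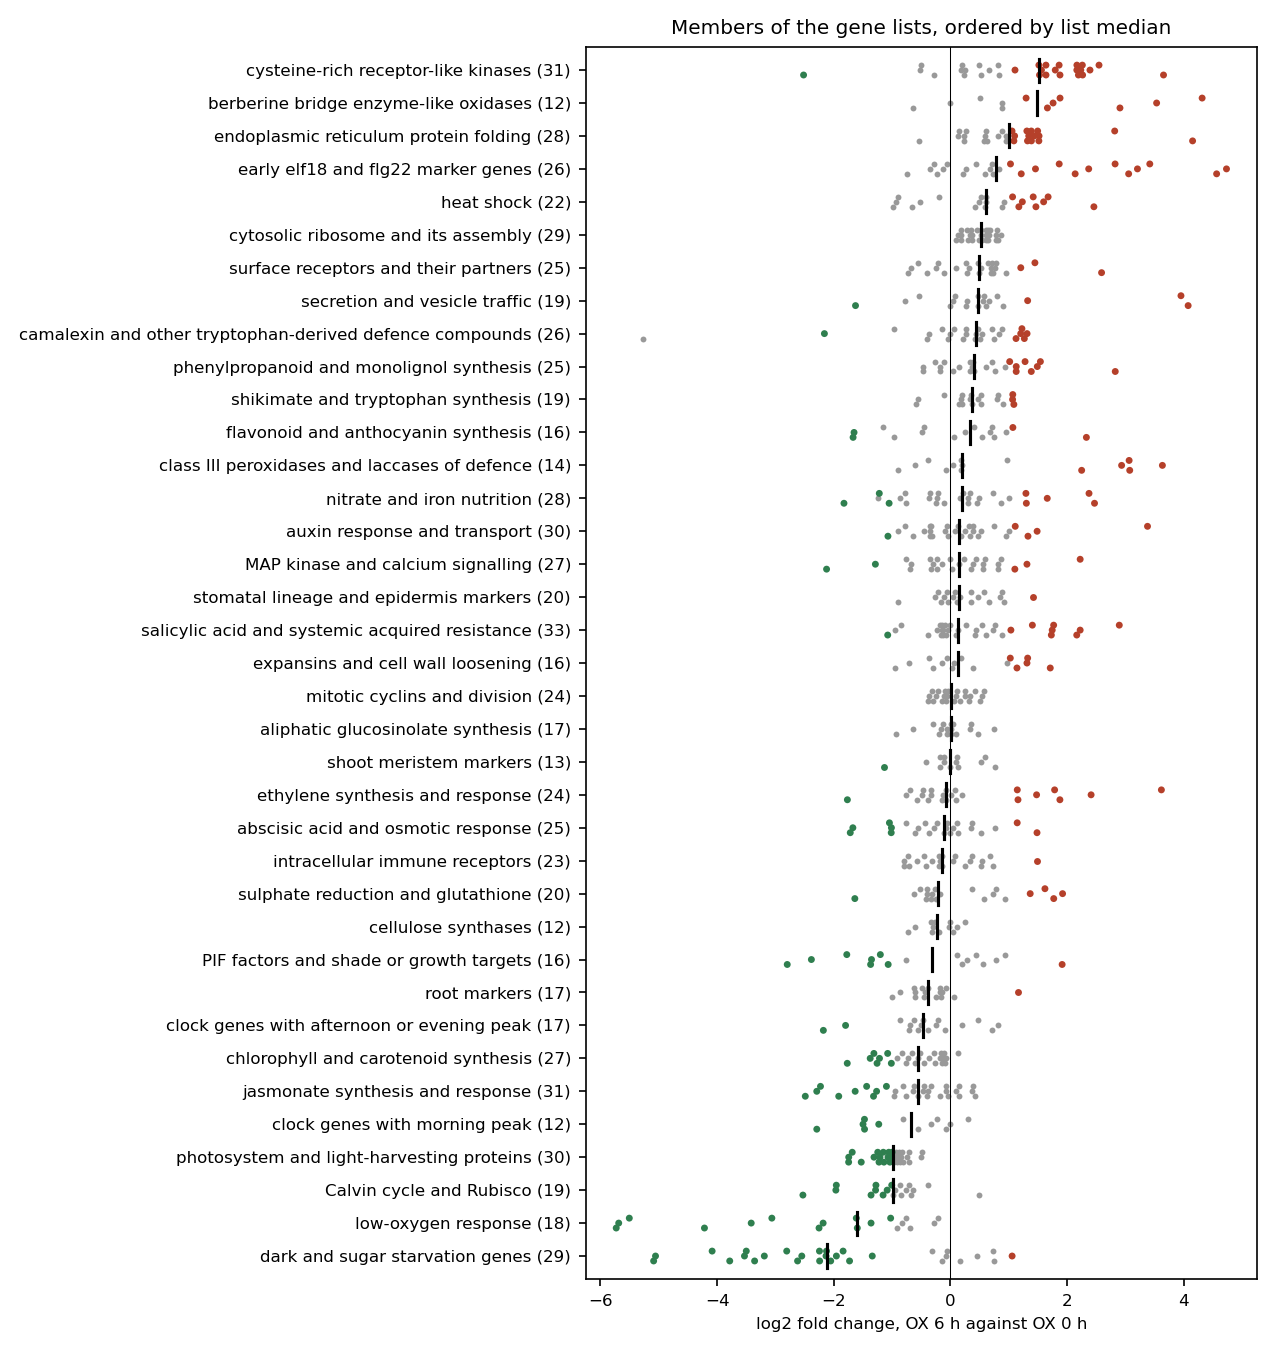
Log2 fold change from OX 0 h to OX 6 h of every tested member of the gene lists (1 point for each gene, lists ordered by median, the number tested in brackets). Cysteine-rich receptor-like kinases, berberine bridge enzyme-like oxidases and endoplasmic reticulum folding genes lie at the high end with medians of 1.53, 1.48 and 1.00, and dark and sugar starvation genes at the low end with -2.12.

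Genes that mark the early response to elf18 or flg22 were still raised at 6 h, with RBOHD among the exceptions. Of 26 early marker genes, 18 rose and 2 fell, 12 of them at least 2-fold higher, with a median of 0.78. FRK1, a receptor kinase gene used as the standard reporter of this response, stood at 28.9, 30.3 and 22.6 CPM in the 0 h libraries and 523, 700.4 and 725 at 6 h, a log2 fold change of 4.57 ± 0.30 (SE, with an adjusted p of 1.8e-11). WRKY30, whose promoter is printed above, stood at 0.549, 0.425 and 0.779 CPM in the 0 h libraries and 15.7, 13.6 and 14.4 at 6 h, a change of 4.73 ± 0.19 (SE, with an adjusted p of 8.6e-15). FRK1 replicate 1 at 6 h was the lowest of its group. WRKY53 rose by 3.06 ± 0.17, WRKY29 by 2.82 ± 0.17 and the ubiquitin ligase gene PUB22, a brake on this signalling, by 2.37 ± 0.14 (log2, SE). PROPEP2 and PROPEP3, precursors of peptides that amplify defence, rose by 3.21 ± 0.24 and 3.42 ± 0.25. RBOHD, the oxidase of the reactive oxygen burst, was lower at 6 h, with 153, 184 and 162 CPM in the 0 h libraries and 91.6, 107 and 100.1 at 6 h, a change of -0.74 ± 0.13 (SE, with an adjusted p of 4.5e-05). The MAP kinase gene MPK3 had a log2 fold change of -0.22 (adjusted p = 0.18) and WRKY33 of 0.22 (adjusted p = 0.28).

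The receptor of the peptide was itself raised, as were several receptors of other microbial patterns. EFR stood at 16.8, 18.16 and 16.6 CPM in the 0 h libraries and 39.0, 38.5 and 41.8 at 6 h, a log2 fold change of 1.21 ± 0.08 (SE, with an adjusted p of 6.1e-11), and the libraries of the times did not overlap. Of 25 surface receptors and their partners, 17 rose and 5 fell, 3 of them at least 2-fold higher, with a median of 0.49. LORE, which senses bacterial medium-chain 3-hydroxy fatty acids, stood at 73.0, 73.4 and 67.5 CPM in the 0 h libraries and 188, 195 and 203 at 6 h, a change of 1.45 ± 0.10 (SE, with an adjusted p of 8.7e-11). IOS1, a malectin-like receptor kinase that associates with pattern receptors, stood at 152, 159 and 127 CPM in the 0 h libraries and 754, 953 and 941 at 6 h, a change of 2.59 ± 0.20 (SE, with an adjusted p of 4.4e-10). The chitin receptor kinase gene CERK1 rose by 0.95 ± 0.08 and the co-receptor gene BKK1 by 0.78 ± 0.07 (log2, SE). CPK28, a calcium-dependent kinase that lowers the amount of the kinase BIK1, fell, with a change of -0.68 ± 0.11, and so did DORN1, the receptor gene for extracellular ATP, with -0.72 ± 0.12. Of 27 MAP kinase and calcium signalling genes, 13 rose and 9 fell, with 3 at least 2-fold higher, 2 at least 2-fold lower and a median of 0.15. CML38, a calmodulin-like gene, stood at 33.7, 35.9 and 36.3 CPM in the 0 h libraries and 8.29, 9.34 and 6.298 at 6 h, a change of -2.12 ± 0.14 (SE, with an adjusted p of 1.5e-11). The calcium channel subunit genes CNGC2 and CNGC4 fell, with changes of -0.70 ± 0.11 and -1.29 ± 0.11, and the MAP kinase kinase gene MKK5 rose by 0.82 ± 0.07.

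Cysteine-rich receptor-like kinases and berberine bridge enzyme-like oxidases had the highest medians of the lists. Of 31 cysteine-rich receptor-like kinase genes, 24 rose and 3 fell, with 18 at least 2-fold higher, 1 at least 2-fold lower and a median of 1.53. Of these genes, 16 have locus names starting with AT4G23, and 13 of the 16 were at least 2-fold higher, against 5 of the 15 elsewhere. CRK21 stood at 22.7, 18.9 and 20.6 CPM in the 0 h libraries and 93.9, 95.9 and 109 at 6 h, a log2 fold change of 2.26 ± 0.09 (SE, with an adjusted p of 6e-15). CRK24 stood at 0.206, 0.313 and 0.195 CPM in the 0 h libraries and 2.53, 3.38 and 3.58 at 6 h, a change of 3.65 ± 0.24 (SE, with an adjusted p of 1.9e-11), and CRK11 rose by 1.64 ± 0.08. CRK4 was the member at least 2-fold lower, with 4.48, 5.41 and 5.31 CPM in the 0 h libraries and 0.733, 1.17 and 0.705 at 6 h and a change of -2.52 ± 0.26 (SE, with an adjusted p of 2.5e-08). Reads shared among these close paralogs make values of single members uncertain. Of 12 berberine bridge enzyme-like genes, 10 rose and 1 fell, 7 of them at least 2-fold higher, with a median of 1.48. FOX4, named for a flavin oxidase, stood at 0.995, 0.671 and 0.877 CPM in the 0 h libraries and 17.2, 16.1 and 18.1 at 6 h, a change of 4.32 ± 0.25 (SE, with an adjusted p of 3.6e-12). BBE8 rose by 3.54 ± 0.18, FOX5 by 2.91 ± 0.16, BBE22 by 1.66 ± 0.10 and OGOX1 by 1.298 ± 0.09 (log2, SE). OGOX1 oxidises fragments of pectin that themselves act as danger signals. OGOX2, the neighbouring locus of the same family, changed by -0.64 ± 0.12 (SE, with an adjusted p of 5.9e-05).

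Genes for peroxidases and for focal secretion at the cell surface rose in part. Of 14 class III peroxidases and laccases of defence, 6 rose and 3 fell, with 5 at least 2-fold higher and a median of 0.19. PRX71, a cell wall peroxidase gene, stood at 356, 374 and 312 CPM in the 0 h libraries and 2706, 2904 and 3173 at 6 h, a log2 fold change of 3.08 ± 0.12 (SE, with an adjusted p of 4.3e-15). PRX4 stood at 3.43, 3.56 and 2.73 CPM in the 0 h libraries and 41.0, 41.6 and 40.9 at 6 h, a change of 3.64 ± 0.19 (SE, with an adjusted p of 4.9e-13), and PRX62 rose by 2.94 ± 0.25. The summed level of this list was 1007.2 to 1194.7 CPM at 0 h and 4679.2 to 5150.1 at 6 h. Of 19 secretion and vesicle traffic genes, 13 rose and 3 fell, 3 by at least 2-fold upward and 1 by at least 2-fold downward. EXO70H1, a subunit of the exocyst that tethers vesicles at the plasma membrane, stood at 3.05, 2.95 and 3.51 CPM in the 0 h libraries and 43.5, 52.3 and 49.7 at 6 h, a change of 3.95 ± 0.16 (SE, with an adjusted p of 1.2e-14). MLO12, a membrane protein gene related to the powdery mildew susceptibility gene MLO2, stood at 29.7, 30.3 and 24.9 CPM in the 0 h libraries and 418, 508 and 511 at 6 h, a change of 4.08 ± 0.20 (SE, with an adjusted p of 1.8e-13). SYP121, also PEN1, the syntaxin of penetration resistance, rose by 0.80 ± 0.09. PATL1, a lipid-binding protein gene of the forming cell plate, fell from 519.5, 502 and 577 CPM to 164, 195 and 159 CPM, a change of -1.63 ± 0.10 (SE, with an adjusted p of 1.1e-11).

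Salicylic acid genes were raised at several synthesis steps, while PR1 did not pass. Of 33 genes of salicylic acid and systemic acquired resistance, 14 rose and 3 fell, with 8 at least 2-fold higher, 1 at least 2-fold lower and a median of 0.13. PR2 was among the 3 that fell. Without OX 6 h replicate 1, 14 rose and 1 fell, with 0 at least 2-fold lower. CBP60G, a transcription factor gene that acts on ICS1, stood at 17.0, 15.4 and 17.1 CPM in the 0 h libraries and 74.3, 82.5 and 74.6 at 6 h, a log2 fold change of 2.23 ± 0.11 (SE, with an adjusted p of 1.3e-13). ICS1, the isochorismate synthase of salicylic acid synthesis, stood at 29.7, 33.3 and 28.0 CPM in the 0 h libraries and 93.0, 108 and 103 at 6 h, a change of 1.73 ± 0.13 (SE, with an adjusted p of 1.3e-10). PBS3, which conjugates isochorismate to glutamate, rose by 2.17 ± 0.24, and ALD1 and SARD4, which make pipecolic acid, rose by 1.75 ± 0.26 and 1.41 ± 0.09 (log2, SE). NIMIN1, a regulator that binds the salicylic acid receptor NPR1, rose by 2.90 ± 0.18. WRKY70, which is induced by salicylic acid, stood at 59.7, 81.8 and 62.6 CPM in the 0 h libraries and 33.2, 37.3 and 34.97 at 6 h, a change of -0.95 ± 0.19 (SE, with an adjusted p of 0.0002). PR1, the secreted marker of that hormone, stood at 63.6, 35.1 and 87.0 CPM in the 0 h libraries and 70.7, 42.6 and 50.03 at 6 h, a change of -0.17 ± 0.27 (SE, with an adjusted p of 0.61), which did not pass, and its libraries overlapped.

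Several genes of ethylene synthesis rose, and more jasmonate genes fell than rose. Of 24 ethylene genes, 7 rose and 10 fell, with 7 at least 2-fold higher and 1 at least 2-fold lower. The 7 are 5 genes for ACC synthase, the step that limits ethylene formation, and the response factor genes ERF5 and ERF11. ACS7 stood at 12.3, 12.9 and 12.0 CPM in the 0 h libraries and 138, 146 and 175 at 6 h, a log2 fold change of 3.62 ± 0.25 (SE, with an adjusted p of 5.1e-11). ACS2, ACS6, ACS8 and ACS11 rose by 1.88 ± 0.17, 1.48 ± 0.14, 2.41 ± 0.28 and 1.79 ± 0.23 (log2, SE). The signalling genes EIN2 and ETR2, a membrane component and a receptor, fell, with changes of -0.76 ± 0.08 and -0.69 ± 0.08. Of 31 jasmonate synthesis and response genes, 1 rose and 17 fell, with 9 at least 2-fold lower and a median of -0.56. After correction for the transcript length trend 5 rose and 18 fell, with a median of -0.47. JAZ9, a repressor gene that jasmonate itself induces, stood at 91.8, 78.6 and 94.8 CPM in the 0 h libraries and 20.7, 19.9 and 12.7 at 6 h, a change of -2.29 ± 0.15 (SE, with an adjusted p of 1.6e-11). The allene oxide cyclase genes AOC1 and AOC2, of jasmonate synthesis, changed by -1.44 ± 0.14 and -1.91 ± 0.18. OX 6 h replicate 3 was the lowest library of its group in these 3 genes. JAZ1 was the member that rose without that correction, by 0.43 ± 0.13.

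The machinery that folds secreted proteins was raised as a group. Of 28 endoplasmic reticulum folding genes, 24 rose and 1 fell, with 14 at least 2-fold higher and a median of 1.00. BIP3, the stress-inducible form of the luminal chaperone BiP, stood at 1.24, 1.32 and 1.07 CPM in the 0 h libraries and 17.9, 25.3 and 22.9 at 6 h, a log2 fold change of 4.15 ± 0.21 (SE, with an adjusted p of 3.5e-13). ERDJ3A, a co-chaperone of BiP whose promoter is printed above, stood at 5.03, 5.37 and 4.58 CPM in the 0 h libraries and 33.0, 38.7 and 34.8 at 6 h, a change of 2.82 ± 0.11 (SE, with an adjusted p of 4.3e-15). Every 6 h library lay above every 0 h library in both. BIP1 and BIP2 rose by 1.32 ± 0.10 and 1.52 ± 0.12, the lectin chaperone gene CNX1 by 1.39 ± 0.09, and ERDJ3B, which is needed for EFR to reach the membrane, by 1.44 ± 0.08 (log2, SE). BZIP60, the transcription factor of the unfolded protein response, rose by 1.31 ± 0.11. IRE1A, which splices its transcript, was the member that fell, with a change of -0.54 ± 0.09 (SE, with an adjusted p of 3e-05). The summed level of this list was 3773.6 to 4052.8 CPM at 0 h and 7201.8 to 8620.7 at 6 h.

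Most ribosome genes rose, by small amounts. Of 29 genes of the cytosolic ribosome and its assembly, 25 rose and 0 fell, none by 2-fold, with a median of 0.53. RPS6A, a protein of the small subunit, stood at 523, 484 and 524 CPM in the 0 h libraries and 922, 814 and 932 at 6 h, a change of 0.80 ± 0.09 (SE, with an adjusted p of 1.9e-07). FIB2, a fibrillarin of ribosomal RNA processing, rose by 0.78 ± 0.09. After correction for the transcript length trend 26 rose with a median of 0.48, and without OX 6 h replicate 1 the figures were 25 and 0.54. Ribosomal protein genes are short, so these settings were the ones given beside this list.

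Heat shock genes rose in part. Of 22 heat shock genes, 12 rose and 5 fell, with 8 at least 2-fold higher and a median of 0.61. HSFA2, a heat stress transcription factor gene, stood at 1.94, 1.32 and 1.41 CPM in the 0 h libraries and 9.84, 8.85 and 7.46 at 6 h, a change of 2.46 ± 0.21 (SE, with an adjusted p of 2.1e-09). HSP90.1 stood at 42.6, 48.0 and 39.3 CPM in the 0 h libraries and 116, 155 and 123 at 6 h, a change of 1.60 ± 0.13 (SE, with an adjusted p of 4.2e-10). HSFA7A was lower, with a change of -0.99 ± 0.15 (SE, with an adjusted p of 4.7e-06). The low starting level of several of these genes in OX is given with the wild type further on.

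Genes for tryptophan-derived and phenylpropanoid compounds rose at many steps, the camalexin gene CYP71A13 being an exception, while genes of sulphate reduction and glutathione moved in both directions. Of 26 genes for camalexin and other tryptophan-derived defence compounds, 15 rose and 3 fell, with 5 at least 2-fold higher and 1 at least 2-fold lower, and a median of 0.43. PEN2, the myrosinase that activates indole glucosinolates in defence, stood at 313, 303 and 309 CPM in the 0 h libraries and 753, 786 and 690.5 at 6 h, a log2 fold change of 1.27 ± 0.10 (SE, with an adjusted p of 3e-10). CYP79B2, which makes the first indole intermediate, rose by 1.23 ± 0.12, CYP83B1 by 1.13 ± 0.11 and CYP71A12 by 1.31 ± 0.14 (log2, SE). CYP71A13, which CYP71A12 closely resembles, stood at 21.2, 35.9 and 13.9 CPM in the 0 h libraries and 5.00, 7.05 and 3.68 at 6 h, a change of -2.16 ± 0.34 (SE, with an adjusted p of 1e-05). Its 0 h libraries spread over more than 2-fold and still did not overlap those at 6 h. Of 19 shikimate and tryptophan synthesis genes, 14 rose and 2 fell, among them the tryptophan synthase gene TSA1 by 1.09 ± 0.13. Of 20 sulphate reduction and glutathione genes, 8 rose and 9 fell, with 4 at least 2-fold higher, 1 at least 2-fold lower and a median of -0.21. In the glutathione S-transferase family, GSTF6 stood at 398, 469.5 and 354 CPM in the 0 h libraries and 1548, 1562 and 1525 at 6 h, a change of 1.92 ± 0.12 (SE, with an adjusted p of 1.1e-11), and GSTF3 changed by -1.64 ± 0.15 (SE, with an adjusted p of 4.6e-09).

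Of 25 phenylpropanoid and monolignol genes, 17 rose and 2 fell, with 8 at least 2-fold higher and a median of 0.41. MYB15, a transcription factor gene of lignin formed in defence, stood at 9.82, 11.7 and 9.11 CPM in the 0 h libraries and 71.6, 79.1 and 68.3 at 6 h, a log2 fold change of 2.83 ± 0.24 (SE, with an adjusted p of 1.2e-09). CAD5 and COMT1, enzymes of monolignol synthesis, rose by 1.54 ± 0.13 and 1.39 ± 0.12 (log2, SE). COMT1 stood at 319.8, 389 and 303 CPM in the 0 h libraries and 763, 949 and 937 at 6 h, and replicate 1 was the lowest 6 h library. Of 16 flavonoid and anthocyanin genes, 7 rose and 4 fell, with 2 at least 2-fold higher and 2 at least 2-fold lower. MYB111, a factor gene of flavonol synthesis, rose by 2.33 ± 0.18, and MYBL2, a repressor of anthocyanin synthesis, stood at 75.1, 79.8 and 75.5 CPM in the 0 h libraries and 23.8, 29.5 and 18.6 at 6 h, a change of -1.67 ± 0.16 (SE, with an adjusted p of 1.3e-08).

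Most nuclear genes of photosynthesis fell. Of 30 photosystem and light-harvesting genes, 0 rose and 30 fell, 15 of them at least 2-fold, with a median of -0.98. LHCA1, an antenna protein of photosystem I, stood at 1674, 1638 and 2085 CPM in the 0 h libraries and 554, 570.3 and 488 at 6 h, a log2 fold change of -1.74 ± 0.18 (SE, with an adjusted p of 3.4e-08). Their summed level was 39143.5 to 49083.2 CPM at 0 h and 20165.7 to 22857.5 CPM at 6 h. Of 19 Calvin cycle genes, 1 rose and 18 fell, 9 at least 2-fold, with a median of -0.99 and summed levels of 16163.0 to 20035.4 and 8476.8 to 9198.3 CPM. RCA, the activase of Rubisco, stood at 1600.2, 1628 and 2004 CPM in the 0 h libraries and 411, 526 and 412 at 6 h, a change of -1.96 ± 0.16 (SE, with an adjusted p of 1.2e-09). CP12-2, a small regulator of the cycle, stood at 47.1, 42.0 and 56.3 CPM in the 0 h libraries and 9.18, 9.94 and 5.29 at 6 h, a change of -2.53 ± 0.23 (SE, with an adjusted p of 5.1e-09). RPI3, a ribose-phosphate isomerase, was the member that rose, by 0.49 ± 0.10 (log2, SE). Of 27 chlorophyll and carotenoid genes, 0 rose and 20 fell, 7 at least 2-fold, with a median of -0.55. CAO, which makes chlorophyll b, stood at 63.3, 61.5 and 69.9 CPM in the 0 h libraries and 24.6, 27.3 and 22.8 at 6 h, a change of -1.38 ± 0.10 (SE, with an adjusted p of 6.6e-11). Counts shared between members of the light-harvesting family cannot be assigned from these files. The summed level covers the listed members only, and CAB3, LHB1B1 and LHB1B2 are not on the list. It can therefore depend on how shared reads were split.

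Genes that Arabidopsis raises in darkness or sugar shortage had the lowest median of the lists. Of 29 dark and sugar starvation genes, 4 rose and 21 fell, with 1 at least 2-fold higher, 20 at least 2-fold lower and a median of -2.12. ASN1, also DIN6, a glutamine-dependent asparagine synthetase gene whose promoter is printed above, stood at 432, 390.2 and 494 CPM in the 0 h libraries and 15.02, 16.2 and 7.41 at 6 h, a log2 fold change of -5.06 ± 0.31 (SE, with an adjusted p of 5.9e-12). SEN1, also DIN1, a marker gene of senescence and darkness, stood at 292, 320 and 350.2 CPM in the 0 h libraries and 9.57, 12.7 and 5.29 at 6 h, a change of -5.09 ± 0.25 (SE, with an adjusted p of 1.7e-13). MCCA, a subunit of methylcrotonyl-CoA carboxylase of leucine breakdown, stood at 205, 223 and 241 CPM in the 0 h libraries and 12.7, 16.2 and 10.2 at 6 h, a change of -4.09 ± 0.17 (SE, with an adjusted p of 1.7e-14). In ASN1 and SEN1 the lowest 6 h library was replicate 3, and each 6 h library lay more than 10 times below each 0 h library. TPS11, of the trehalose phosphate synthase family, changed by -3.53 ± 0.17 and DIN4, of branched-chain amino acid breakdown, by -2.25 ± 0.11 (log2, SE). STP13, a hexose transporter gene of defence, was the member at least 2-fold higher, with a change of 1.06 ± 0.08 (SE, with an adjusted p of 2.8e-10). The summed level of this list was 7028.9 to 7791.0 CPM at 0 h and 1593.2 to 1731.3 CPM at 6 h.

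All 18 tested low-oxygen genes fell, 12 of them at least 2-fold, with a median of -1.60. LBD41, a transcription factor gene of this response, stood at 136, 149 and 178 CPM in the 0 h libraries and 2.82, 3.62 and 2.37 at 6 h, a change of -5.69 ± 0.51 (SE, with an adjusted p of 2.9e-09). HRA1, a factor that damps the response, stood at 80.1, 88.1 and 96.1 CPM in the 0 h libraries and 1.17, 2.26 and 1.66 at 6 h, a change of -5.73 ± 0.53 (SE, with an adjusted p of 5.2e-09). PDC1, the pyruvate decarboxylase of fermentation, stood at 40.8, 62.5 and 60.3 CPM in the 0 h libraries and 2.603, 3.98 and 1.96 at 6 h, a change of -4.22 ± 0.26 (SE, with an adjusted p of 6.5e-12). PCO1 and PCO2, plant cysteine oxidases that act as oxygen sensors, changed by -3.42 ± 0.19 and -3.06 ± 0.18 (log2, SE).

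On a mixed list of 28 nitrate and iron nutrition genes, 11 rose and 7 fell, near the shares over all genes tested, with 5 at least 2-fold higher and 3 at least 2-fold lower. NRT3.1, the partner protein of the NRT2 nitrate transporters, stood at 37.8, 37.7 and 40.3 CPM in the 0 h libraries and 178, 209 and 215 at 6 h, a change of 2.38 ± 0.09 (SE, with an adjusted p of 7.5e-15). GLN1;1, a cytosolic glutamine synthetase gene, stood at 303, 267 and 246 CPM in the 0 h libraries and 1359, 1422 and 1746 at 6 h, a change of 2.47 ± 0.14 (SE, with an adjusted p of 1.3e-12). GLN2 and GLU1, the chloroplast glutamine synthetase and glutamate synthase, fell, with changes of -0.76 ± 0.07 and -1.82 ± 0.14 (log2, SE).

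On the lists of clock genes and of PIF factors and targets more members fell than rose, and both groups normally swing with the hour of day. Of 12 morning clock genes, 0 rose and 6 fell, 5 at least 2-fold. Of 17 afternoon and evening clock genes, 3 rose and 10 fell, 2 at least 2-fold. PRR7, a repressor of the morning genes, stood at 157, 181 and 160 CPM in the 0 h libraries and 48.0, 75.3 and 53.1 at 6 h, a log2 fold change of -1.50 ± 0.14 (SE, with an adjusted p of 5.8e-09). PRR5 changed by -1.80 ± 0.15 (SE, with an adjusted p of 1.1e-09), TOC1, a repressor with an evening peak, by -0.71 ± 0.07 (SE, with an adjusted p of 8e-09) and ELF4, of the evening complex, by 0.81 ± 0.12 (SE, with an adjusted p of 8.4e-06). The harvest hours of the times differed, and no group here was taken at the same hours without peptide. Of 16 PIF factors and growth targets, 5 rose and 8 fell, with 1 at least 2-fold higher and 7 at least 2-fold lower. PIF4, a bHLH factor gene that promotes growth, stood at 56.2, 52.4 and 64.7 CPM in the 0 h libraries and 8.69, 8.80 and 7.10 at 6 h, a change of -2.80 ± 0.14 (SE, with an adjusted p of 3e-13). IAA19, an auxin-response gene of growing hypocotyls, was the member at least 2-fold higher, with a change of 1.92 ± 0.13 (SE, with an adjusted p of 6.4e-11).

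Of 30 auxin genes, 13 rose and 9 fell, with 4 at least 2-fold higher and 1 at least 2-fold lower. GH3.3, an enzyme that conjugates auxin, rose by 1.33 ± 0.12, and the auxin influx carrier gene LAX1 changed by -1.07 ± 0.09 (log2, SE). Of 16 expansins and wall-loosening enzymes, 6 rose and 3 fell, with 5 at least 2-fold higher, among them EXPA5 by 1.71 ± 0.10 and EXPA1 by 1.33 ± 0.13. Of 12 cellulose synthesis genes, 1 rose and 5 fell, none by 2-fold, with a median of -0.23. This direction depended on transcript length: after correction for the length trend 3 rose and 3 fell, with a median of 0.02. Of 24 mitotic genes, 6 rose and 3 fell, none by 2-fold, with a median of 0.00. Of 25 genes of abscisic acid and osmotic response, 5 rose and 8 fell, with 2 at least 2-fold higher and 5 at least 2-fold lower, the latter 3 without OX 0 h replicate 3, OX 6 h replicate 1 or OX 6 h replicate 3. RD22, a dehydration-responsive gene, rose by 1.49 ± 0.08, and RD26, a NAC factor gene, stood at 24.9, 24.4 and 22.6 CPM in the 0 h libraries and 8.05, 8.01 and 5.39 at 6 h, a change of -1.72 ± 0.13 (SE, with an adjusted p of 3.4e-10).

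Markers of organs and cell layers were present at both times, as whole seedlings would give. Of 17 root markers, 1 rose and 8 fell, 1 at least 2-fold higher, and their summed level was 193.2 to 214.5 CPM at 0 h and 140.2 to 171.5 CPM at 6 h, with OX 6 h replicate 1 the lowest. Of 20 stomatal lineage and epidermis markers, 8 rose and 2 fell, with sums of 722.1 to 816.5 and 968.0 to 1059.8 CPM. Of 13 shoot meristem markers, 1 rose and 1 fell, with sums of 109.9 to 111.2 and 100.0 to 107.3 CPM. The part that the makeup of the seedlings has in the changes above was not tested.

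The 6 h change in OX was set beside that in WT, where other seedlings gave both times. In WT 12152 genes (57.8%) passed. Across the 21015 genes the log2 fold changes of the genotypes had a Pearson r of 0.85, as a description across genes that share libraries. The test of the difference itself passed for 1333 genes (6.34%), with the change higher in OX for 720 (3.43%) and lower for 613 (2.92%). At 2-fold or more the counts were 304 (1.45%) and 110 (0.523%). These counts depend on single libraries: leaving out each in turn gave 747 to 2244 genes, with 747 without WT 0 h replicate 2, 775 without WT 6 h replicate 1, 869 without OX 0 h replicate 3 and 2244 without WT 0 h replicate 1. For FRK1 the change in OX less that in WT was -0.98 ± 0.37 (log2, SE, adjusted p = 0.12; without WT 0 h replicate 1 it was -1.48, adjusted p = 0.0046), for EFR -0.18 ± 0.12 (adjusted p = 0.44), for WRKY30 -0.00 ± 0.14 (adjusted p = 1) and for BIP3 -0.56 ± 0.30 (adjusted p = 0.33). No difference was detected for these 4 genes, which does not show that they responded alike.

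**Figure D4:**
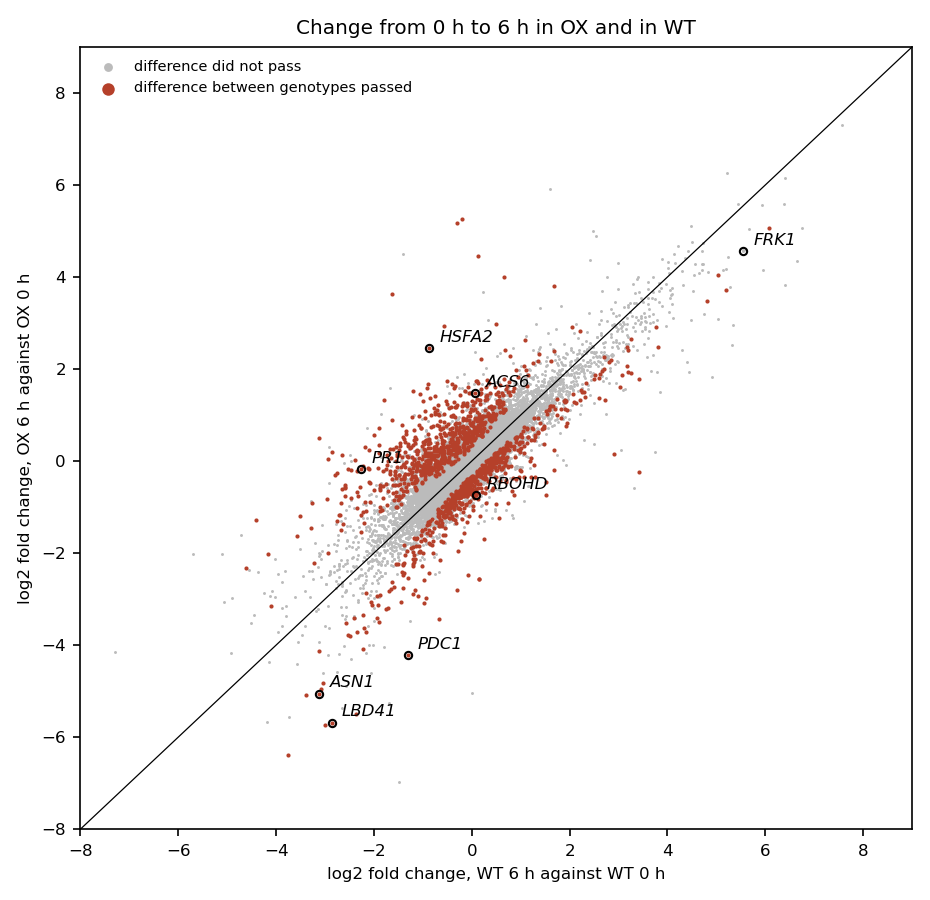
Log2 fold change from 0 h to 6 h of every gene tested, WT on the horizontal and OX on the vertical axis, with genes whose difference between the genotypes passed in red. Most of the 21015 points lie along the diagonal (r = 0.85), and 1333 are red.

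Where the genotypes differed, several lists differed at 0 h and had medians near 0 at 6 h. Between the genotypes 14.6% of the 21015 genes differed at 0 h and 1.52% at 6 h. For starvation genes the median log2 fold change of OX against WT was 0.77 at 0 h, where 18 of 29 were higher in OX, and 0.00 at 6 h, where 0 were in edgeR (0 also at an unadjusted p under 0.05). The change from 0 h to 6 h was lower in OX for 17 of these 29. ASN1 stood at 83.5, 70.1 and 79.2 CPM in WT at 0 h and 8.72, 7.86 and 10.5 CPM at 6 h, and its change in OX less that in WT was -1.93 ± 0.39 (SE, adjusted p = 0.0033). For low-oxygen genes the median was 0.55 at 0 h and -0.07 at 6 h, and the change was lower in OX for 8 of 18. PDC1 stood at 8.49, 12.8 and 5.39 CPM in WT at 0 h and 2.87, 4.15 and 4.09 CPM at 6 h, a difference in change of -2.90 ± 0.35 (SE, adjusted p = 4.4e-05). Its OX libraries were above all 3 WT libraries at 0 h and below the highest of them at 6 h. For heat shock genes the median was -1.53 at 0 h, where 14 of 22 were lower in OX, and -0.22 at 6 h, where 0 were in edgeR (7 at an unadjusted p under 0.05). The change of these genes was higher in OX for 12. HSFA2 stood at 10.8, 20.4 and 19.4 CPM in WT at 0 h and 9.10, 9.62 and 8.56 CPM at 6 h, a difference of 3.34 ± 0.28 (SE, adjusted p = 1.8e-07). HSP90.1 differed by 1.31 ± 0.17 (adjusted p = 9.3e-05). Jasmonate genes had medians of -0.38 and -0.06, and the change was higher in OX for 8 of 31.

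The change also differed for part of the defence lists. For 8 of 25 phenylpropanoid genes the change was lower in OX, and the median of OX against WT was 0.03 at 0 h and -0.34 at 6 h. For surface receptors the change was lower in OX for 5 of 25 and higher for 1, and for camalexin and related genes it was higher for 5 of 26 and lower for 1. For cysteine-rich receptor-like kinases it was lower in OX for 4 of 31 and higher for 1. For salicylic acid genes it was higher for 2 of 33, PR1 among them. Over all genes tested it was higher for 3.43% and lower for 2.92%. At 0 h and 6 h the medians of OX against WT were 0.13 and -0.08 for surface receptors. For camalexin and related genes they were -0.26 and -0.02. They were 0.33 and -0.01 for cysteine-rich receptor-like kinases and 0.19 and 0.11 for salicylic acid genes. At 0 h OX was above WT for 10 surface receptors (2 below) and 9 of these kinases (1 below). It was below WT for 10 camalexin and related genes (2 above). PR1 stood at 34.4, 26.2 and 29.5 CPM in WT at 0 h and 5.83, 5.71 and 7.66 CPM at 6 h, and its change differed by 2.09 ± 0.41 (SE, adjusted p = 0.0027). All 3 OX libraries at 6 h lay above all 3 WT libraries of that time for this gene. The change of RBOHD was lower in OX, with a difference of -0.83 ± 0.18 (adjusted p = 0.0077), and that of the ACC synthase gene ACS6 higher, with 1.41 ± 0.20 (adjusted p = 0.00015). The changes of EXPA1 and EXPA5 were higher in OX, with 1.18 ± 0.19 and 0.96 ± 0.14 (adjusted p = 0.00044 and 0.0002).

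**Figure D5:**
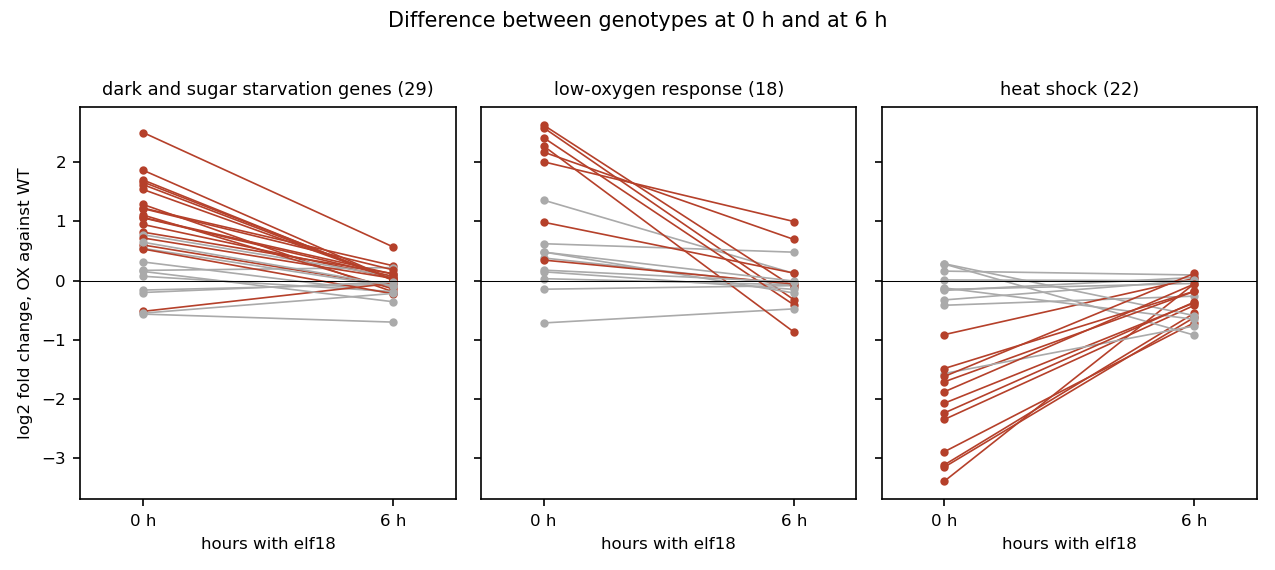
Log2 fold change of OX against WT at 0 h and at 6 h for members of selected gene lists, with 1 line for each gene and the number tested in brackets. Starvation and low-oxygen genes lie above 0 at 0 h (medians 0.77 and 0.55) and heat shock genes below (-1.53), and all 3 lists lie near 0 at 6 h.

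The 6 h state of OX also differed from that at 1 h, the earliest time with the same peptide and medium. In edgeR's test 14265 genes (67.9%) passed, 7219 higher (34.4%) and 7046 lower (33.5%) at 6 h than at 1 h, with 1597 at least 2-fold higher (7.60%) and 2512 at least 2-fold lower (12.0%). Most early marker genes were lower at 6 h than at 1 h: 2 of 26 were higher at 6 h and 22 lower, 15 of them at least 2-fold. WRKY30 stood at 131, 108 and 116 CPM at 1 h and 15.7, 13.6 and 14.4 CPM at 6 h, a change of -3.02 ± 0.13 (SE, adjusted p = 7.5e-15). FRK1 was the member at least 2-fold higher, with 75.9, 108 and 104 CPM at 1 h and a change of 2.76 ± 0.27 (adjusted p = 7.5e-09). RBOHD stood at 753, 968 and 803 CPM at 1 h, a change of -3.08 ± 0.14 (adjusted p = 2.2e-14). Low-oxygen genes had a median of -5.20 between these times. LBD41 stood at 1586, 1458 and 1348 CPM at 1 h, a change of -8.94 ± 0.56 (adjusted p = 5.1e-12). Endoplasmic reticulum folding genes had a median of 1.29. BIP3 stood at 1.19, 1.78 and 2.09 CPM at 1 h, a change of 3.75 ± 0.20 (adjusted p = 4.6e-13), and CRK21 at 26.1, 26.7 and 23.8 CPM, a change of 1.96 ± 0.09 (adjusted p = 1.6e-14).

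From 6 h to 12 h in OX, 7962 genes (37.9%) passed, 4240 higher (20.2%) and 3722 lower (17.7%), with 758 at least 2-fold higher (3.61%) and 358 at least 2-fold lower (1.70%). Salicylic acid genes rose in this interval, with 28 of 33 higher, 18 of them at least 2-fold, and a median of 1.18. PR1 stood at 177, 123 and 173 CPM at 12 h, a change of 1.53 ± 0.28 (SE, adjusted p = 0.00014), and WRKY70 at 108, 108 and 108 CPM, a change of 1.62 ± 0.19 (adjusted p = 9.2e-07). Of 25 phenylpropanoid genes 19 were higher and 3 lower at 12 h, 13 at least 2-fold higher, with a median of 1.05. CYP71A13 stood at 63.2, 48.6 and 64.2 CPM at 12 h, a change of 3.45 ± 0.34 (adjusted p = 6.1e-08). Of 30 photosystem and light-harvesting genes 0 were higher and 29 lower, 21 at least 2-fold, with a median of -1.24. CIPK20, a protein kinase gene of the calcineurin B-like network, had the largest decrease among the genes named by rule, from 11.1, 13.2 and 9.62 CPM to 0.0988, 0.161 and 0.107 CPM, a change of -6.38 ± 0.32 (adjusted p = 2.6e-12). FRK1 stood at 708, 695 and 705 CPM at 12 h and did not pass against 6 h, with a change of 0.11 ± 0.25 (adjusted p = 0.75).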

How the data were processed

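Read counts per locus were deposited by the authors in 24 columns, 1 per library, per the file headers, and the authors also deposited FPKM, 1 column for each of 8 groups, without replicates. Named in the submitters' processing notes are the build TAIR10, Cuffdiff, Cufflinks 2.1.1, DESeq2 and TopHat2 2.0.8. Which tool counted the reads, and on which strand, is not given in the sources used here, so overlapping, antisense and close paralogous genes may share reads. Per the labels' protocols, stranded mRNA libraries were read as single reads of 75 cycles, and libraries of 1 condition shared a well for sequencing.

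The test was edgeR's (4.0.16, under R 4.3.3), with 1 quasi-likelihood fit of 24 libraries with 8 group means, TMM scaling, filterByExpr with a minimum count of 10, and Benjamini-Hochberg adjustment over 21015 genes. Log2 fold changes carry the SE from the fit, and every adjusted p is from this test unless another tool is named. CPM values are scaled by TMM. Alternatives were DESeq2 1.42.0, RLE factors, no filter, fewer libraries in the fit, a replicate block, correction for transcript length, thinning and leaving out each library. On simulated counts of 20933 genes for 6 h against 0 h in OX, 49 of 50 genes with a 1-unit log2 rise were recovered. All 50 with a 1-unit fall were recovered as well, with 12 false calls in all. Only 200 genes were changed in the simulation, with no length trend, while 58.9% of genes passed here. The number of false calls therefore does not carry over to these data. Across genes, log2 ratios of FPKM + 1 had an r of 0.937 with the edgeR fold changes. The RefSeq annotation of TAIR10.1 matched 21330 loci by name and 77 not; promoters come from it, while read counts come from TAIR10.

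The comparison, the gene lists and the alternatives were chosen with earlier results of these data known. Genes were named by rule: in each list at most 5 members by smallest adjusted p and at most 2 in the opposite direction. The 6 with the largest CPM, EFR and PR1 were named as well. The 12 largest rises and the 12 largest falls were also named. These had to pass, with a mean log2 CPM of at least 1 and no overlap between the 6 libraries. For 6 h against 1 h and 12 h against 6 h the same rule gave 8 each way. The genotype difference also gave 8 each way, without the overlap rule. BZIP60, ALD1, PBS3, WRKY33, MPK3, ACS11, ERF5, BIP1, BIP2, PROPEP2 and PROPEP3 were named after their values were seen.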

Additional observations from a re-analysis of the deposited data

Results flagged for a closer look

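Of the genes named for the change from 0 h to 6 h in OX, 38 also passed edgeR's test of the difference between OX and WT in that change, at an adjusted p under 0.05. The values are the log2 change in OX less that in WT, and a negative value means that the change was lower in OX. In starvation genes and others that fell, the difference was -1.93 for ASN1, -1.70 for SEN1, -1.85 for MCCA, -0.96 for TPS11, -1.04 for DIN4, -1.87 for BT1 and -1.78 for BXL1. The hexose transporter gene STP13 had 0.48. In genes of low oxygen it was -2.82 for LBD41, -2.74 for HRA1, -2.90 for PDC1, -1.47 for PCO1 and -1.01 for PCO2, and AT1G33055 had -2.64. The change of chaperone and heat stress factor genes was higher in OX, with 3.34 for HSFA2, 1.31 for HSP90.1 and 0.60 for ERDJ3A.

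Among defence and hormone genes the difference was 2.09 for PR1, 1.64 for ALD1, 1.41 for ACS6 and -1.63 for ACS11. It was -0.83 for RBOHD, -0.64 for CPK28, -0.43 for CRK21, -1.51 for CYP71A13, -1.34 for AT4G12490 and -1.02 for AT4G12500. Growth genes had 1.18 for EXPA1, 0.96 for EXPA5 and -0.57 for GH3.3, and the ethylene receptor gene ETR2 had -0.40. The clock genes PRR5 and TOC1 had -0.95 and -0.51, the kinase gene CIPK20 0.85 and the glutamine synthetase gene GLN1;1 -0.70. The immune receptor genes TN3 and RPM1 had 0.87 and -0.73, and NAS4 0.73.

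Over the 19 other settings, 24 of these 38 differences passed in every one. The other 14 missed the threshold in at least 1. LBD41 and NAS4 missed it in 1 setting (highest adjusted p = 0.082 and 0.076), ALD1 in 3 (0.14), AT1G33055 in 5 (0.093), GLN1;1 in 7 (0.091) and HRA1 in 8 (0.13). AT4G12490, ETR2 and GH3.3 missed it in 10 (0.12, 0.091 and 0.12), CIPK20, CRK21 and PCO2 in 11 (0.14, 0.11 and 0.5), CYP71A13 in 13 (0.18) and AT4G12500 in 14 (0.16). The cause was not tested.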

How the results depend on the processing

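The change from OX 0 h to OX 6 h kept its counts of genes within 1.5 times under every alternative run, with 11032 to 12331 genes passing when 1 library was left out and 11395 to 12743 in the other settings, DESeq2, RLE size factors and no filter on low counts among them. The 134 genes named for it, PR2 not counted, kept their direction and their side of the threshold in all of these. Naming went mainly by small adjusted p or large change in this comparison, so this stability was largely set in advance. The salicylic acid genes that fell, PR2 among them in the main fit, numbered 1 in place of 3 without OX 6 h replicate 1. The counts for 6 h against 1 h and for 12 h against 6 h also stayed within 1.5 times.

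The difference between the genotypes was less stable. Fitted with the libraries of its 4 groups alone it gave 691 genes, 434 higher and 257 lower, 67 of them at least 2-fold lower, and 2 low-oxygen members at least 2-fold lower in place of 6. Leaving out 1 library gave 747 to 2244 genes, 449 to 1197 higher and 290 to 1047 lower, 215 to 484 at least 2-fold higher and 64 to 202 at least 2-fold lower, and 3 to 7 of those low-oxygen members. The count of abscisic acid genes at least 2-fold lower from 0 h to 6 h, 5, ran from 3 to 6. The cause was not tested.

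Same-numbered replicates of OX 0 h and OX 6 h had correlations of 0.113, 0.119 and 0.021 in their deviations, so the numbers were not taken to pair the samples. Replicates 1 and 2 correlated best with their own number and replicate 3 did not. With the replicate number as a block, 12743 genes passed for 6 h against 0 h, 1624 for the genotype difference, 14583 for 6 h against 1 h and 8541 for 12 h against 6 h. The smallest library held 18767661 counts, and thinning all to that total gave 981 genes for the genotype difference.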

Other observations

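Families were also counted by the annotation text deposited with the read counts, for every text shared by at least 10 genes tested. This description was made after the fold changes were known. At least 2-fold rises from OX 0 h to OX 6 h, 6.14% over all genes tested, were found for 6 of 10 genes annotated as WRKY family transcription factors (median log2 fold change 1.42) and 5 of 10 annotated only as TIR domain proteins (median 1.00). In the classes of intracellular immune receptors they were found for 4 of 59 TIR-NBS-LRR genes (median 0.00) and 3 of 10 TIR-NBS genes (median -0.20), and 25 CC-NBS-LRR genes had a median of -0.22. The share was 5 of 10 for genes of the p24 and GOLD family, cargo receptors of traffic from the endoplasmic reticulum (median 0.99), for 9 of 37 calcium-binding EF-hand genes (median 0.32) and for 14 of 67 SAUR-like auxin-responsive genes (median 0.35). Of 62 peroxidase superfamily genes 14 rose at least 2-fold and the median was -0.04. At least 2-fold decreases, 5.87% over all genes tested, were found for 8 of 44 MATE efflux family genes and 5 of 30 genes of the NPH3 family of phototropism proteins.

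On the list of 23 intracellular immune receptors the counts were near those over all genes tested (30.1% higher, 28.8% lower): 8 rose and 9 fell from OX 0 h to OX 6 h, with a median of -0.15. Only 1 changed by at least 2-fold, and without OX 6 h replicate 1 the receptors that fell numbered 5. After correction for the transcript length trend 10 rose and 6 fell, with a median of 0.16. TN3, with a TIR domain, stood at 16.4, 13.6 and 12.6 CPM in the 0 h libraries and 36.1, 44.6 and 39.8 at 6 h, a log2 fold change of 1.49 ± 0.11 (SE, with an adjusted p of 1.2e-10). RPS4 and NRG1.1, a receptor and a helper of such receptors, fell, with changes of -0.79 ± 0.09 and -0.71 ± 0.09 (SE). RPM1, which guards the protein RIN4, rose by 0.73 ± 0.11.

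On the list of nitrate and iron nutrition genes, NAS1 and NAS4, synthases of the metal chelator nicotianamine, rose by 1.66 ± 0.12 and 1.303 ± 0.11 (log2, SE), and NAS1 stood at 13.0, 11.8 and 11.2 CPM in the 0 h libraries and 30.8, 41.7 and 42.4 at 6 h.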
